A study of Mus musculus with 47 samples.

Results

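The genes examined here encode the proteins of the cytosolic ribosome. A gene was a member when its platform symbol was Rps or Rpl followed by a number and at most 1 letter a, x or y, or was Rplp0, Rplp1, Rplp2 or Rpsa, with the Rps6k kinases left out. Of the 12393 mouse genes named by a probe set of 1 symbol, 41 met this rule, 19 of the small (40S) and 22 of the large (60S) subunit. All 41 were among the 8810 genes that passed the filter on low values. The small-subunit members were Rps2, Rps3, Rps4x, Rps6, Rps7, Rps9, Rps10, Rps14, Rps15, Rps18, Rps19, Rps20, Rps24, Rps25, Rps26, Rps27, Rps28, Rps29 and Rpsa. The large-subunit members were Rpl4, Rpl6, Rpl7, Rpl7a, Rpl8, Rpl10a, Rpl11, Rpl12, Rpl13a, Rpl14, Rpl19, Rpl22, Rpl27, Rpl27a, Rpl35, Rpl37, Rpl37a, Rpl38, Rpl39, Rpl41, Rplp0 and Rplp2. A further 27 symbols of the same pattern, among them Rpl5, Rpl10 and Rplp1, stood only on probe sets that also carry other symbols and have no value of their own here.

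The series profiled 47 T-cell lymphoblastic tumours of mice on Affymetrix arrays, 1 array per tumour. The genotype label divides them into 6 TLX1-positive and 41 TLX1-negative tumours, and the titles give 14 genetic backgrounds. These are TLX1 transgenic (6 tumours), the transgenics of ThPOK (3), beta-catenin (3), Pokemon (2), Nup98HoxD13 (3), LMO1 (3) and Tal1 (2), the double transgenics Tal1-LMO2 (3) and olig1-LMO1 (3), Ikaros Plastic (3), the knockouts of p53 (3), E2A (2) and rag E2A (2), and Cdkn2a knockout with retroviral insertional mutagenesis (9), shortened below to Cdkn2a knockout. The labels give no promoter for any transgene and no strain, age or sex, there is no normal thymus among the arrays, and nothing says that the tumours of a background came from separate mice. The p-values therefore measure only the spread between these tumours.

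Apart from the stalk proteins, ribosomal proteins are present in equal amounts in the ribosome, and their mRNAs are among the most abundant of a growing cell. Most vertebrate ribosomal protein mRNAs start with a C followed by a run of pyrimidines, the 5′ terminal oligopyrimidine (TOP) tract, through which the mTOR pathway sets their translation. In the T lineage, Rpl22 is needed for the development of alpha-beta T cells, RPL22, RPL5 and RPL10 are mutated in human T-cell acute leukaemia, and Rpl11 and Rpl5 with the 5S RNA bind Mdm2 when ribosome assembly is disturbed.

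The sequences around the start sites are shown for the members that kept closest to the family and for the 10 that departed most, by the SD over the tumours of the member's log2 signal relative to the family mean, because a TOP tract is the feature the family is known to share. Of the 5 closest members, Rpl7 had no matched RefSeq promoter. Each sequence runs from 40 bases before to 20 bases from the listed start on, so that the start site is base 41, read from RefSeq on GRCm38.p6, with every CTTTC, the related pyrimidine run CTTCC and the TATA-box letters TATAA in capitals; Rpl19 and Rpl22 have more than 1 listed start. The closest members come first.
Rpl19, chr11:98026670-98026729, + strand: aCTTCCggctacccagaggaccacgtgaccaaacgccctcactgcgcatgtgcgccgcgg
Rpl19, chr11:98026884-98026943, + strand: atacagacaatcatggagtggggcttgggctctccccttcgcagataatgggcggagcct
Rpl6, chr5:121204461-121204520, + strand: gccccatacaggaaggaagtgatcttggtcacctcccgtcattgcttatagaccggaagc
Rpl4, chr9:64173347-64173406, + strand: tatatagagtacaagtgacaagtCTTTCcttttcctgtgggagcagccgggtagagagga
Rpl7a, chr2:26910767-26910826, + strand: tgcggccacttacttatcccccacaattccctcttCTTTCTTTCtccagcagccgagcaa
Rps27, chr3:90213629-90213688, - strand: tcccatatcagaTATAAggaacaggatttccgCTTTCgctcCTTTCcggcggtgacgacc
Rpl27a, chr7:109519155-109519214, + strand: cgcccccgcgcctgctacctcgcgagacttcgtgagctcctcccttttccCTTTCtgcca
Rpl39, chrX:37085203-37085262, - strand: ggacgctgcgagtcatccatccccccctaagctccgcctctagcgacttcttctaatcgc
Rps6, chr4:86857348-86857407, - strand: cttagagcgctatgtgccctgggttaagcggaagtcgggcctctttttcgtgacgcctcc
Rpl12, chr2:32961672-32961731, + strand: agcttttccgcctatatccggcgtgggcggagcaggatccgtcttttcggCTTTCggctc
Rpl14, chr9:120571477-120571536, + strand: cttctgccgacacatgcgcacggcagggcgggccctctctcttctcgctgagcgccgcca
Rpl37, chr15:5116573-5116632, + strand: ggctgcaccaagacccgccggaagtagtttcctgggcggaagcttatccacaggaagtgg
Rps25, chr9:44407674-44407733, + strand: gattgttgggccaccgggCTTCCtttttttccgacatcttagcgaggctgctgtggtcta
Rpl41, chr10:128549149-128549208, - strand: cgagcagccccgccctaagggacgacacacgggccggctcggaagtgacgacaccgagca
Rpl22, chr4:152325686-152325745, + strand: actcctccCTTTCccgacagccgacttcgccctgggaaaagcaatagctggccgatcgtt
Rpl22, chr4:152324396-152324455, + strand: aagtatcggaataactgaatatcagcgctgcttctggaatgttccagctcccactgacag
CTTTC lay in the windows of 2 of the 4 closest members, Rpl4 and Rpl7a, and of 4 of the 10 that departed most, Rps27, Rpl27a, Rpl12 and Rpl22. In Rpl7a a CTTTC spans the listed start, whereas in Rpl22 it lies 32 bases before it.

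RefSeq promoters were matched for 36 of the 41 members. Counting any listed start of a gene, CTTTC on the gene's strand lay in the 60-base window of 12 members (33.3%), against 9.42% of 27025 genes with a promoter. The related CTTCC, which can overlap CTTTC as in Rplp2, lay in 8 members (22.2%) against 14.8%, and TATAA in 4 (11.1%) against 6.05%. From 250 bases before to 50 after the start, on both strands, CCGGAAG, the core bound by ETS factors, lay in 18 members (50%) against 9.93%, and GGGCGG, the core bound by Sp1, in 20 (55.6%) against 38.2%. The E-box CACGTG, which Myc can bind, lay in 4 members (11.1%) against 8.09%, and AAGATGGC, the core bound by YY1, in 3 (8.33%) against 3.19%. These are matches of letters only.

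All arrays had been scaled to the same 2% trimmed mean, between 250.06 and 250.13, while their medians ran from 49.6 to 106 signal units. Of 12 T-cell markers tested, 9 to 12 were above the array median in 46 tumours. In p53 knockout 2 only 2 were, and its endothelial markers stood 4.17 and its stroma markers 3.03 above the average of the backgrounds on the log2 scale. The main results for p53 knockout are therefore given without this tumour too, and the part of other cells in them was not tested. Lmo1, the gene of the LMO1 transgene, read 522 to 2344 in the LMO1 transgenic tumours, 11 to 34 in those labelled olig1-LMO1 and 586 to 2526 in those labelled Nup98HoxD13, so values for the last 2 backgrounds are those of the tumours so labelled. The control probe sets' 3′ to 5′ ratio, a sign of RNA integrity, was 2.79, 2.55 and 1.94 on the log2 scale in TLX1 tumours 2, 5 and 6 and at most 0.97 elsewhere.

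The ribosomal protein genes moved up and down together from tumour to tumour. The family shift of a tumour is the mean log2 signal of the 41 members minus the mean of the 14 background means. On the deposited scale it ran from -0.90 in Nup98HoxD13 tumour 3 to 0.86 in Tal1 tumour 2, a range of 3.37-fold. The Tal1 tumours stood highest, at 0.71 and 0.86, followed by the E2A knockout tumours at 0.78 and 0.36 and the Tal1-LMO2 tumours at 0.40, 0.37 and 0.18. The lowest were the Nup98HoxD13 tumours at -0.49, -0.19 and -0.90, the Ikaros Plastic tumours at -0.57, -0.35 and -0.60 and the p53 knockout tumours at -0.33, -0.77 and -0.23. The 3 highest and the 3 lowest backgrounds, picked by this same shift, did not overlap. Between them, the background means were 0.20 ± 0.08 (SD, n = 3) in ThPOK, 0.15 ± 0.08 (SD, n = 2) in rag E2A, 0.01 ± 0.13 (SD, n = 2) in Pokemon, -0.03 ± 0.21 (SD, n = 3) in beta-catenin and -0.06 ± 0.07 (SD, n = 3) in olig1-LMO1 tumours. They were -0.10 ± 0.21 (SD, n = 6) in TLX1, -0.12 ± 0.10 (SD, n = 9) in Cdkn2a knockout and -0.25 ± 0.11 (SD, n = 3) in LMO1 tumours. Neighbours in this order differed by less than the larger of their SDs, except rag E2A against Pokemon and Cdkn2a knockout against LMO1. The 6 TLX1 tumours, from -0.38 to 0.22, lay within the range of the TLX1-negative tumours.

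Quantile normalization, which gives every array the same distribution of values, took nearly all of this away. The family shift then ran from -0.27 in p53 knockout 2 to 0.12, a range of 1.31-fold. The SD of the 14 background means fell from 0.38 to 0.06, and the pooled SD within backgrounds from 0.18 to 0.06. After it the spread between backgrounds was as large as the spread within them, with background means from -0.13 in p53 knockout to 0.11 in Tal1. Most members are among the brightest genes of each array, where this step makes values nearly equal. It would therefore also remove much of a real shared change, and the cause of the shift was not tested.

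**Figure D1:**
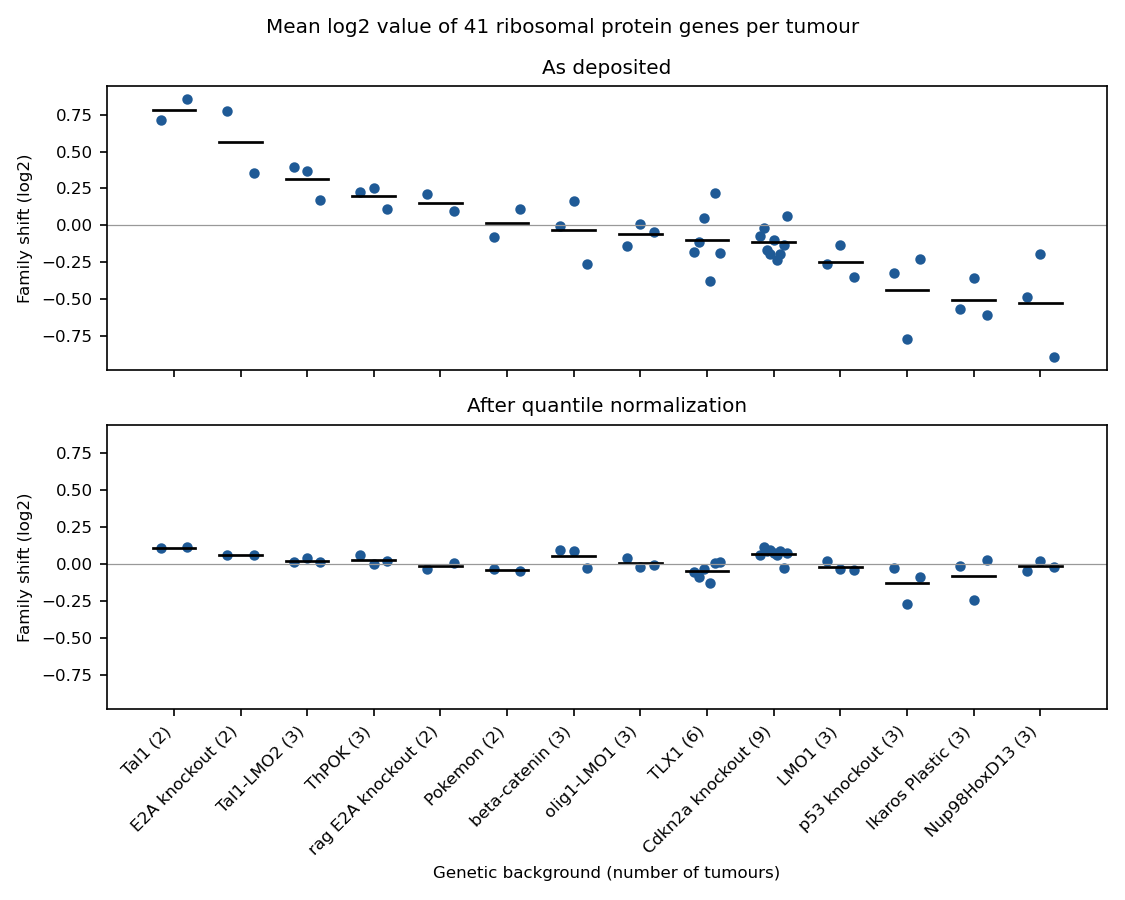
Family shift of each tumour (log2, points) by background, on the deposited values (top) and after quantile normalization (bottom), with lines at the background means. The deposited shifts run from -0.90 to 0.86 and the quantile-normalized ones from -0.27 to 0.12.

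The family shift followed the brightest other genes of the same array. The 99th percentile of the signals of probe sets outside the family was 4601 to 4716 in the Tal1 tumours, 2457 to 3325 in the tumours labelled Nup98HoxD13 and 2522 to 3112 in the Ikaros Plastic tumours. Over the 47 tumours its log2 correlated with the family shift at r = 0.95 (Spearman 0.93), and at 0.94 without the 2 tumours farthest from the median. Within backgrounds r was 0.84, within the 6 TLX1 tumours 0.77 and within the 9 Cdkn2a knockout tumours 0.82. These quantities share their array and its scaling, and whether the shift reflects the arrays' signal distribution or the tumours' RNA was not tested. The correlation with the array median was -0.54 and with the control 3′ to 5′ ratio 0.04.

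**Figure D2:**
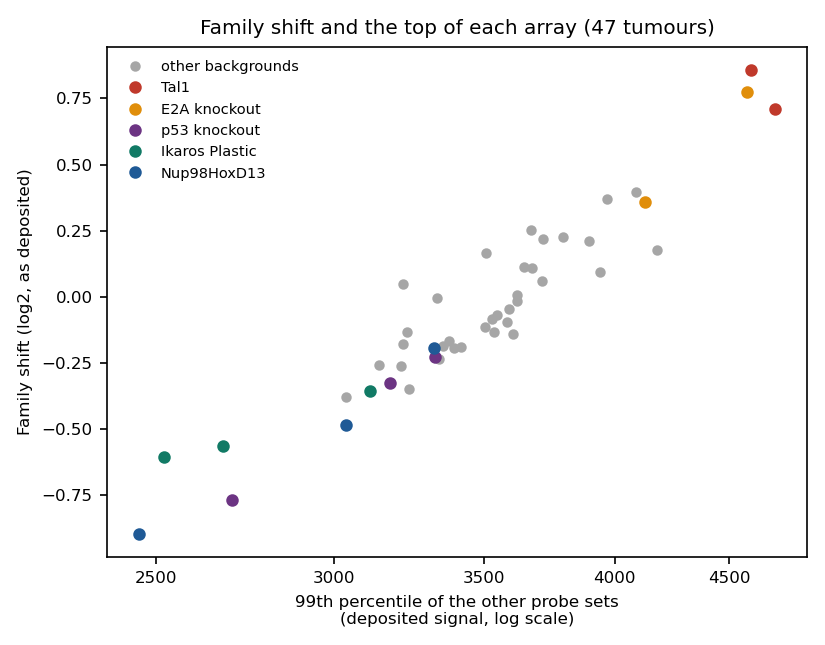
Family shift of each of the 47 tumours (log2) against the 99th percentile of the signals of all other probe sets on its array (signal units, log axis), 1 point per tumour. Tumours with a brighter top percentile have a higher family shift, with r = 0.95.

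Markers of other cells moved with the shift less closely. Over the 47 tumours the mean of 11 endothelial markers correlated with it at -0.55, that of 14 stroma markers at -0.54, that of 7 B-cell markers at -0.42, that of 20 myeloid markers at -0.32 and that of 12 T-cell markers at 0.27. Within backgrounds r was, in the same order, -0.31, -0.16, 0.03, -0.002 and 0.28. It was 0.55, 0.34, 0.67, 0.29 and 0.003 within the 6 TLX1 tumours, and -0.20, -0.09, 0.03, 0.40 and 0.05 within the 9 Cdkn2a knockout tumours. The stroma shift was -2.25 to -1.76 in the Tal1-LMO2 tumours and 0.89 to 1.78 in the Ikaros Plastic tumours. Their part in the family shift was not tested, and in whole tumours fewer cells of a type and less RNA per cell cannot be told apart.

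The members divided into 34 with a median signal of 1892 to 9027 and 7 with 115 to 654, namely Rps27, Rpl39, Rpl27a, Rpl14, Rpl12, Rps25 and Rps6; the line at 1000 was drawn after the values were seen. A signal is a probe set's own and does not rank transcripts against each other. Of the 561 pairs among the 34, 447 correlated at over 0.8 across the 47 tumours, with a median of 0.93; after quantile normalization the median was 0.07 and 0 pairs were over 0.8. Among the 7 dim members the median was 0.14 before and 0.17 after. The same division held for probe sets: 64 of the 90 probe sets of the members had a median above 1000, and 63 of these correlated with the other members at over 0.5, against 1 of 26 dimmer ones. The small-subunit and large-subunit means correlated at 0.98, and the 102 probe sets with a ribosomal protein symbol among several, which are not members, followed the family shift at 0.98.

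Rpl19 kept closest to the family. Relative to the family mean of each tumour, its SD over the 47 tumours was 0.08, followed by Rpl6 and Rpl7 at 0.10 and Rpl4 and Rpl7a at 0.11. The signal of Rpl19 was 12072 and 14045 in the Tal1 tumours and 4991, 6731 and 3644 in the tumours labelled Nup98HoxD13. The Tal1 tumours were above all 3 of the others. These backgrounds have the highest and the lowest mean family shift, and Rpl19 correlated with the other members at 0.98.

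Each background was then set against the unweighted mean of the other 13, with limma's moderated test and Benjamini-Hochberg adjustment over all 8810 genes; a gene is called at an adjusted p under 0.05. On the deposited values most members were called in one direction in 5 backgrounds. In Tal1 tumours 31 members were called higher and 0 lower, beside 4.96% of all genes called (3.10% higher), and the median difference was 0.95 for members against -0.09 for all genes. Rps3, a small-subunit protein at the mRNA entry, had the lowest p there at 1.18 (SE 0.14, adjusted p = 1.5e-06), followed by Rps18 at 1.11 and Rpl13a at 1.09. In E2A knockout 28 were called higher and 0 lower (4.34% of all genes, 1.51% higher), with a median of 0.70 against -0.07 and the lowest p for Rps3 at 0.80, Rps19 at 0.83 and Rps18 at 0.80. Without E2A knockout tumour 1, 0 members were called by limma and 13 had an unadjusted p under 0.05, and without Tal1 tumour 2, 19 were called in Tal1.

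The other 3 backgrounds had most members lower. In Ikaros Plastic 33 members were called lower and 1 higher (22.8% of all genes, 7.85% lower and 15% higher), with a median of -0.64 against 0.09. In tumours labelled Nup98HoxD13, 30 were called lower and 0 higher (3.01%, 1.63% lower), with a median of -0.68 against -0.01 and the lowest p for Rps3 at -0.73, Rps18 at -0.76 and Rps28 at -0.81. Without Nup98HoxD13 tumour 3, 1 was called, Rps3 at -0.55 (adjusted p = 0.040), while 26 members had p under 0.05 before adjustment. In p53 knockout 30 were called lower and 1 higher (21.7%, 9.34% lower and 12.4% higher), with a median of -0.50 against 0.04 and the lowest p for Rpl37 at -1.14, Rps9 at -0.78 and Rpl10a at -0.72. Without the T-cell-marker-poor tumour 2, 7 were called lower and 0 higher there, beside 2.62% and 3.96% of all genes, and the median was -0.30 against 0.04. Rpl37, Rps9 and Rpl10a were then at -0.90, -0.69 and -0.53 (adjusted p = 0.0055, 0.0099 and 0.036).

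The remaining backgrounds had fewer calls. In Cdkn2a knockout 16 were called lower and 4 higher (30.7%, 14.6% lower and 16.1% higher), with a median of -0.20 against 0.02. In Tal1-LMO2 tumours 10 were called higher and 0 lower (6.67%, 1.44% higher), with the lowest p for Rps3 at 0.58, Rps9 at 0.60 and Rps19 at 0.47, but without tumour 1, 2 or 3 only 1, 2 and 2 were. ThPOK had 4 higher and 1 lower (11.8%, 6.61% higher and 5.21% lower), beta-catenin 2 higher (18.8%, 11.4% higher), TLX1 against the other 13 backgrounds 1 higher and 2 lower (31.5%, 19.0% higher and 12.5% lower), and Pokemon 1 lower (0.953%, 0.602% lower). No member was called in LMO1, olig1-LMO1 or rag E2A tumours, where limma called 1.03%, 0.658% and 1.56% of all genes and 19, 2 and 4 members had an unadjusted p under 0.05. The largest differences there were -0.41 for Rps26 in LMO1, -0.63 for Rps27 in olig1-LMO1 and -0.69 for Rpl14 in rag E2A. Over the 14 backgrounds 40 of 41 members differed by the moderated F test, beside 68.1% of all genes.

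After quantile normalization, 54 of the 574 pairs of member and background were called, 24 higher and 30 lower, in place of 195 (82 higher, 113 lower). Tal1 had 2 higher and 2 lower (1.15% of all genes). The 2 higher had been called higher on deposited values too. The 2 lower had not been called lower there, and Rplp2 among them had been called higher. In p53 knockout 1 was higher and 10 lower (21.4%), 9 of them called in the same direction on deposited values. Without p53 knockout 2, 1 was higher and 4 lower, beside 3.16% and 2.52% of all genes. Ikaros Plastic had 5 lower (18.4%), 4 of them called on deposited values. The tumours labelled Nup98HoxD13 had 2 lower (1.18%), both called before, Rps26 at -0.31 and Rps15 at -0.42, neither called without tumour 3 (-0.19 each, adjusted p = 0.23 and 0.42). Cdkn2a knockout had 8 higher and 2 lower (29.5%), 6 of them called in the same direction before, ThPOK had 5 higher and 2 lower (10.5%), beta-catenin 4 higher and 1 lower (18.1%), TLX1 4 higher and 5 lower (31.1%) and Pokemon 1 lower (0.658%). None was called in E2A knockout (1.73%), Tal1-LMO2 (3.01%), LMO1 (0.795%), olig1-LMO1 (0.431%) or rag E2A (0.556%), where limma gave 4, 2, 3, 3 and 1 members an unadjusted p under 0.05. By the F test 22 members differed among backgrounds (63.4% of all genes). For the Ikaros Plastic tumours the normalization moved the median of all genes from 0.09 to -0.08, so differences there are read relative to that.

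**Figure D3:**
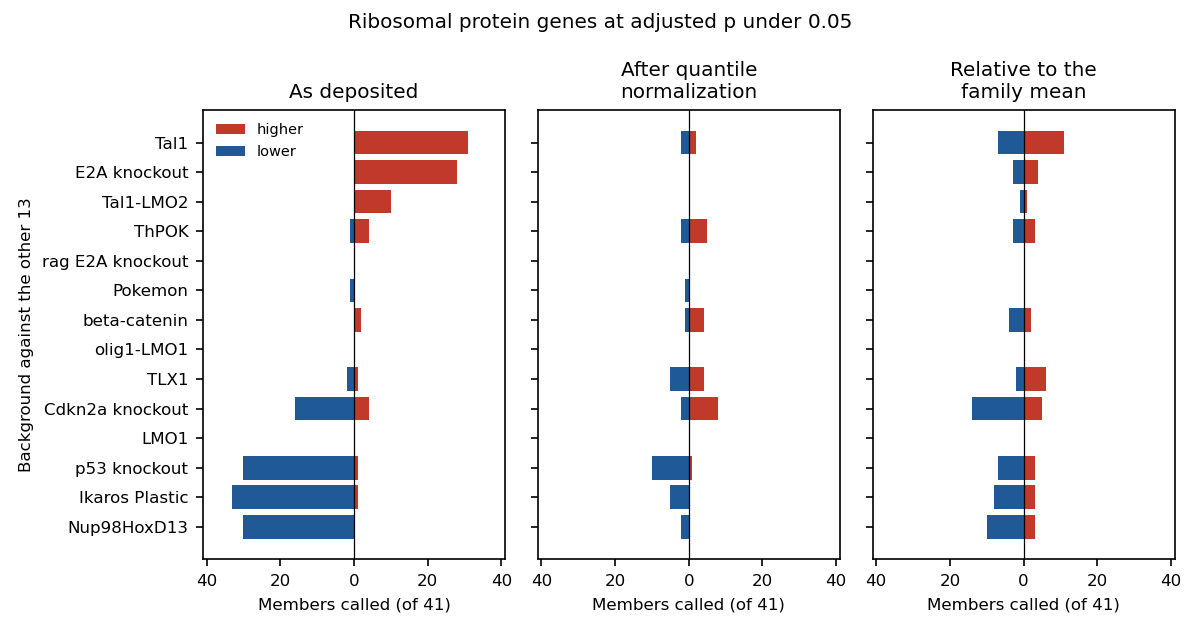
Number of the 41 members called higher (above 0) and lower (below 0) in each background against the other 13, at an adjusted p under 0.05, on deposited, quantile-normalized and family-relative values. The 31 higher calls of Tal1 and the 33 lower calls of Ikaros Plastic on deposited values become 2 and 0 higher and 2 and 5 lower after quantile normalization.

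Subtracting the family mean of each tumour sets each member against the mean of all 41. This mean includes the 7 dim members, which mostly followed the family less closely, so the 34 bright members share an offset on this scale. In Nup98HoxD13 tumour 3 the mean shift of the bright members was -1.07 beside a family shift of -0.90. In E2A knockout 1 the bright members stood at 0.90 beside 0.78. Relative values of the members sum to 0 on each array, so a few members that move far push the rest the other way, and all other genes move against the family (the median of all genes became -0.93 in Tal1 and 0.64 in Ikaros Plastic). On this scale 29 members differed among backgrounds by the F test (92.4% of all genes), and 100 pairs were called, 41 higher and 59 lower. Tal1 had 11 higher and 7 lower (65.9%), Cdkn2a knockout 5 and 14 (28.9%) and tumours labelled Nup98HoxD13 3 and 10 (41.9%). Ikaros Plastic had 3 and 8 (53.1%) and p53 knockout 3 and 7 (42.5%). Without p53 knockout 2, p53 knockout had 2 higher and 5 lower, beside 12.8% and 0.67% of all genes. TLX1 had 6 and 2 (29.5%), E2A knockout 4 and 3 (40.4%) and ThPOK 3 and 3 (9.69%). For beta-catenin the counts were 2 and 4 (14%) and for Tal1-LMO2 1 and 1 (19.1%). LMO1 (3.47%), olig1-LMO1 (0.352%), rag E2A (2.03%) and Pokemon (0.318%) had 0 by limma, with 1, 5, 2 and 10 members at an unadjusted p under 0.05. The lowest adjusted p values of the F test were those of Rpl39 (3.5e-08), Rpl37 (2.1e-07), Rpl13a (8.4e-07), Rpl27a (1.7e-06), Rpsa (2.8e-06), Rps3 (3.0e-06), Rpl35 (8.4e-06), Rps27 (4.1e-05), Rpl37a (4.7e-05) and Rpl38 (5.9e-05).

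**Figure D4:**
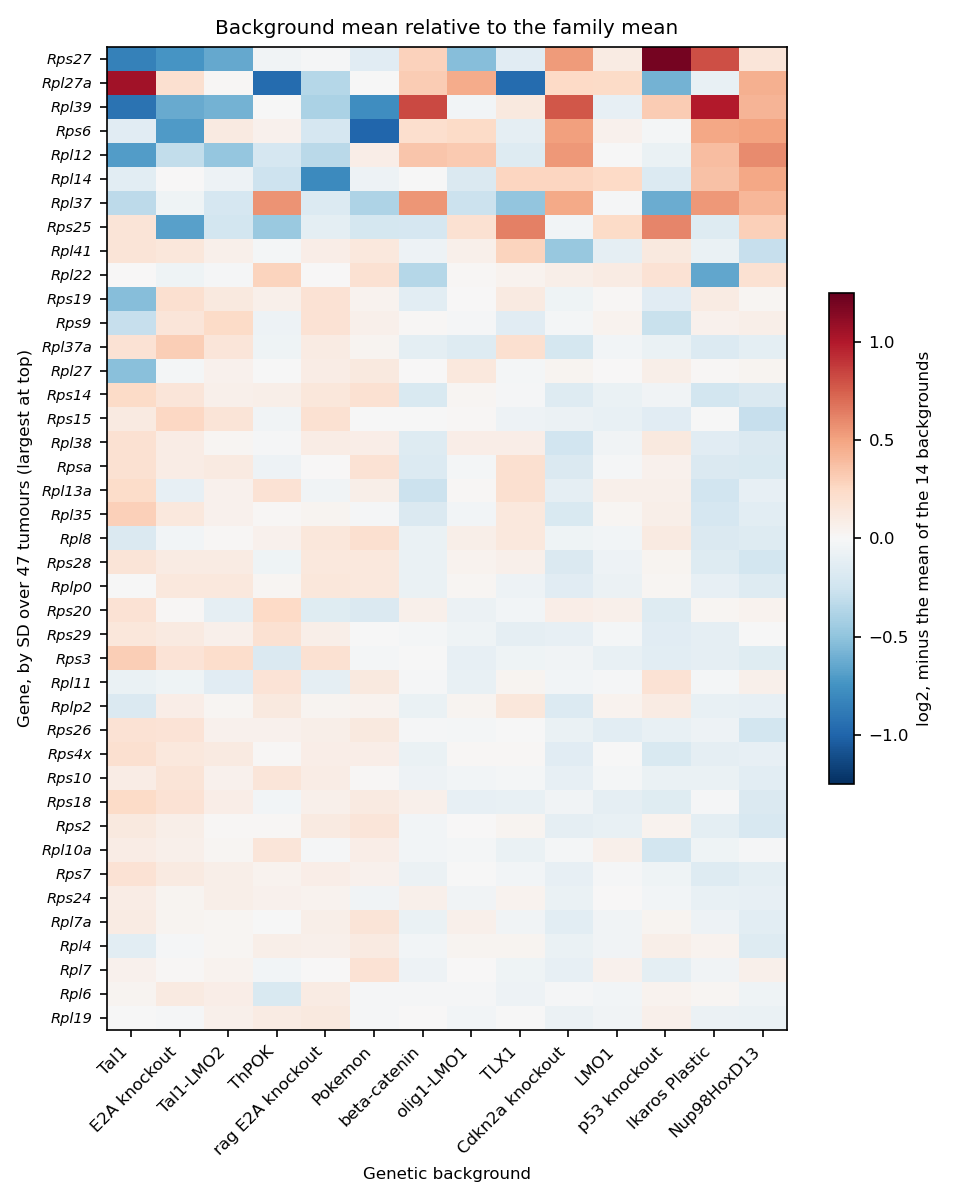
Mean log2 value of each of the 41 members in each of the 14 backgrounds relative to the family mean, minus the member's mean over the backgrounds, red for higher and blue for lower. Rpl22 in Ikaros Plastic, Rpl27a in Tal1 and Rpl39 in Cdkn2a knockout and beta-catenin are coloured cells, with differences from the other 13 backgrounds of -0.70, 1.13, 0.84 and 0.89.

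Rpl22, the member with a known part in T-cell development, was lowest in the Ikaros Plastic tumours. Its signal there was 2836, 1547 and 3286. In the other backgrounds it was 4215 to 6438 in TLX1, 2848 to 5335 in beta-catenin, 2965 to 5677 in p53 knockout and 3253 to 6112 in the tumours labelled Nup98HoxD13, and at least 4212 elsewhere. Tumours 1 and 2 of Ikaros Plastic were below every tumour of the other backgrounds, and tumour 3 was above 3 of them, beta-catenin 3, p53 knockout 2 and Nup98HoxD13 3. The difference was -1.24 (SE 0.17, adjusted p = 7.0e-06) on deposited values, -0.79 (SE 0.16, adjusted p = 0.0012) after quantile normalization and -0.70 (SE 0.14, adjusted p = 1.2e-04) relative to the family mean. Without Ikaros Plastic tumour 2 the deposited difference was -0.92 (adjusted p = 0.0022), the relative one -0.29 (adjusted p = 0.035) and the quantile-normalized one, no longer called, -0.35 (adjusted p = 0.20). At the other end, Tal1 tumours read 9407 and 9463, which no other tumour reached, with a difference of 0.85 (SE 0.21, adjusted p = 0.0091) on deposited values and 0.13, not called, after quantile normalization. The deposited call was lost without either Tal1 tumour (adjusted p = 0.18 and 0.11). A second Rpl22 probe set, dimmer at a median of 464, read 654, 462 and 807 in the Ikaros Plastic tumours and did not follow the first (r = 0.00 over 47 tumours), so the low Rpl22 rests on 1 probe set.

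Rpl22l1, the paralog that can take the place of Rpl22, is not a member by the rule. Its signal was 7737 and 8113 in the Tal1 tumours, above every other tumour, 1755, 2019 and 1368 in p53 knockout and 3043, 1041 and 2747 in the tumours labelled Nup98HoxD13, beside a median of 4055 over all tumours. In Ikaros Plastic, where Rpl22 was low, it read 2944, 3055 and 2691. Its difference was -1.30 (SE 0.20, adjusted p = 3.2e-05) in p53 knockout and -1.42 (adjusted p = 5.0e-04) without tumour 2. In tumours labelled Nup98HoxD13 it was -1.0, but -0.51 (adjusted p = 0.26) without tumour 2, and in Ikaros Plastic -0.47, not called. Of 11 listed paralogs 5 were tested. Rps27l differed by 1.15 (SE 0.18, adjusted p = 7.0e-05) in Tal1. Rpl3l, the muscle form of Rpl3, read 36, 222, 65, 50, 115 and 26 in the TLX1 tumours against a median of 14.3 over all tumours. It passed the filter on low values only through TLX1 tumours 2 and 5, which also had the highest control 3′ to 5′ ratios, so no difference is given. Rpl39l read 717 in Ikaros Plastic tumour 3 and at most 76 in any other, and Rpl7l1 ran from 312 to 941. Fau, the fusion precursor of the small-subunit protein eS30, was the 1 tested ribosomal protein of 4 listed outside the rule, and its log2 level followed the family shift at r = 0.74.

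Rpl11, which binds Mdm2 within the 5S particle, followed the family. Its signal was 10109 and 9626 in Tal1, 4003, 4826 and 3848 in Ikaros Plastic and 5727, 3021 and 7601 in p53 knockout, with p53 knockout tumour 2 below all Ikaros Plastic tumours and the other two between both groups. Its difference was 0.75 in Tal1 and -0.57 in Ikaros Plastic on deposited values, and 0.02 and -0.03 after quantile normalization. The call in Tal1 was lost without either tumour (adjusted p = 0.22 and 0.084). In p53 knockout its difference relative to the family was 0.20 (SE 0.08, adjusted p = 0.047), a call that was lost in 30 of the 47 settings that leave out 1 tumour; it was 0.41 without p53 knockout 2 and 0.016 (adjusted p = 0.89) without p53 knockout 3.

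The P stalk proteins Rplp0 and Rplp2 recruit the elongation factors to the ribosome. Rplp0 read 13020 and 16232 in Tal1 and 4918, 7714 and 4446 in Ikaros Plastic, and Rplp2 12970 and 15772 against 5962, 7099 and 5698. Both were higher in each Tal1 tumour than in each Ikaros Plastic tumour. These backgrounds lie toward opposite ends of the family shift, and Rplp0 and Rplp2 correlated with the other members at 0.95 and 0.94. The difference of Rplp0 in Ikaros Plastic was -0.66 on deposited values and -0.05 after quantile normalization; without tumour 3 the former was -0.51 (adjusted p = 0.055). Rplp2 in Tal1 went from 0.65 on deposited values to -0.28 (SE 0.07, adjusted p = 0.029) after quantile normalization, and both calls were lost without either Tal1 tumour.

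Of the small-subunit members tied to anaemia, Rps19, mutated in Diamond-Blackfan anaemia, read 11816 and 10682 in E2A knockout, 6041 and 10230 in Tal1 and 4906, 3817 and 4496 in p53 knockout. The E2A knockout tumours were the highest of these and the p53 knockout tumours the lowest. The difference was 0.83 (SE 0.15, adjusted p = 8.9e-04) in E2A knockout and -0.63 (SE 0.13, adjusted p = 7.4e-04) in p53 knockout on deposited values; without E2A knockout 1 the former was 0.76 (adjusted p = 0.17) and without p53 knockout 2 the latter was -0.53 (adjusted p = 0.029). Rps14, lost with the long arm of a human chromosome in a form of myelodysplasia, read 16511 and 18296 in Tal1 and 4747, 6363 and 4429 in Ikaros Plastic, where its difference was -0.79 on deposited values, -0.17 after quantile normalization and -0.24 relative to the family. The quantile-normalized call was lost without any 1 of the Ikaros Plastic tumours and the relative one without tumour 1 or 3. Rpsa, which is also the laminin receptor precursor, read 19958 and 18775 in Tal1 and 6055, 6292 and 5918 in Ikaros Plastic, with a relative difference of -0.20 (SE 0.06, adjusted p = 0.0085) in the latter, or -0.14 (adjusted p = 0.090) without tumour 2. Rps6, the target of the S6 kinases, was dim here, from 190 in Pokemon tumour 2 to 1081 in Tal1 tumour 1. It stood 0.55 (SE 0.18, adjusted p = 0.022) relative to the family in Cdkn2a knockout, and 0.43, not called, on deposited values.

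Bright members also departed from the family by small amounts that were called, many of them resting on single tumours. These amounts include the offset that the bright members share. The median relative difference over all members was 0.10 in Tal1, 0.09 in E2A knockout, -0.11 in tumours labelled Nup98HoxD13 and -0.08 in Cdkn2a knockout. Relative to the family mean Rps3 was 0.33 (SE 0.07, adjusted p = 1.6e-04) in Tal1, 0.24 in Tal1-LMO2 and 0.19 in E2A knockout, but -0.19 in ThPOK, all called. Without E2A knockout 1 it was 0.073 (adjusted p = 0.65) in E2A knockout, and the ThPOK call was lost without each of its 3 tumours. Its signals were 16231 and 17531 in Tal1 against 5087, 5529 and 4838 in Ikaros Plastic. Rpl13a was -0.25 in Ikaros Plastic and -0.29 in beta-catenin and 0.19 in ThPOK, the last lost without each ThPOK tumour. In Cdkn2a knockout Rpl38 stood at -0.26 (SE 0.04, adjusted p = 3.0e-05), Rpl35 at -0.21 and Rpsa at -0.20. In tumours labelled Nup98HoxD13 Rps15 stood at -0.31, Rps28 at -0.25 and Rps18 at -0.20, and all 3 calls were lost without tumour 3 (adjusted p = 0.22, 0.18 and 0.14). Rps18 turned to 0.0063 relative to the family after quantile normalization. In p53 knockout Rpl10a stood at -0.25 and Rps4x at -0.21. Without tumour 2 they were at -0.22 (adjusted p = 0.071) and -0.24 (adjusted p = 0.025), and both calls were lost without tumour 3. In ThPOK Rps20 at 0.26 and Rpl6 at -0.20, calls that were lost without each of the 3 tumours. In E2A knockout Rpl37a stood at 0.33, or 0.19 (adjusted p = 0.45) without tumour 1. With each gene's probe set of largest interquartile range in place of the brightest, the signs of Rpl35 in Cdkn2a knockout, of Rpl37a in E2A knockout and of Rpl13a in beta-catenin turned, to 0.49, -0.30 and 0.10.

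The widest departures from the family were those of Rps27, with an SD of 0.65 over the tumours, Rpl27a 0.63, Rpl39 0.62, Rps6 0.58, Rpl12 0.52, Rpl14 0.50, Rpl37 0.49, Rps25 0.48, Rpl41 0.43 and Rpl22 0.29. The first 6, with Rps25, are the 7 dim members. Before the subtraction the SD was smaller for Rps27 (0.48), Rpl39 (0.47), Rps6 (0.55), Rpl12 (0.43), Rpl14 (0.48) and Rps25 (0.45). It was larger for Rpl27a (0.78), Rpl37 (0.55), Rpl41 (0.61) and Rpl22 (0.48). A member that does not follow the family takes on the family shift with its sign reversed on this scale.

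Rpl39, a short protein at the exit tunnel, read 166 to 331 in Cdkn2a knockout, 251, 290 and 289 in beta-catenin, 219, 255 and 188 in Ikaros Plastic, 123 and 152 in Tal1 and 69 and 101 in Pokemon. The Pokemon tumours were below all other tumours. The difference was 0.72 (SE 0.10, adjusted p = 1.8e-06) in Cdkn2a knockout and 0.85 (SE 0.16, adjusted p = 2.4e-04) in beta-catenin. It was 0.69 and 0.78 after quantile normalization, and thus moved little with the scale. In Pokemon it was -0.82 (SE 0.19, adjusted p = 0.028), the 1 member called there, and in Ikaros Plastic the 1 called higher, at 0.52 (SE 0.16, adjusted p = 0.019). The Pokemon call was lost without either tumour (adjusted p = 0.79 and 0.18), and the Ikaros Plastic call without tumour 1 or 2 (adjusted p = 0.061 and 0.21). Relative to the family it was -1.0 in Tal1. Its median signal over all tumours was 152, and the subtracted family shift averaged 0.78 in Tal1, so most of this value is that shift.

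Rpl37, a zinc-binding protein of the large subunit, read 3020, 3859 and 2658 in ThPOK, 3178, 2671 and 2242 in beta-catenin and 1824 to 2815 in Cdkn2a knockout. In p53 knockout it read 978, 625 and 1124 and in TLX1 1118, 1422, 1411, 774, 1862 and 1035. The first 3 groups and the last 2 overlapped only through TLX1 tumour 5, above the lowest Cdkn2a knockout tumour. The difference was 0.81 (SE 0.17, adjusted p = 0.0022) in ThPOK, -1.14 (SE 0.17, adjusted p = 2.6e-05) in p53 knockout, where it was -0.90 (adjusted p = 0.0055) without tumour 2, and 0.39 in Cdkn2a knockout. Each was called after quantile normalization too, at 0.76, -1.14 and 0.43. Without ThPOK tumour 2 the ThPOK difference was 0.66 (adjusted p = 0.060) on deposited values.

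Rpl27a, another large-subunit protein, read 777 and 733 in Tal1 and 49 to 484 in all other tumours, with no overlap. Its difference in Tal1 was 1.97 (SE 0.32, adjusted p = 1.1e-04) on deposited values, 2.03 (SE 0.34, adjusted p = 0.0011) after quantile normalization and 1.13 relative to the family. It was low in ThPOK at 115, 111 and 110 and in p53 knockout at 84, 75 and 116, with differences of -0.82 and -1.11 (-0.99, adjusted p = 0.055, without p53 knockout 2). The ThPOK call was lost after quantile normalization (-0.83, adjusted p = 0.055) and without each ThPOK tumour, and the quantile-normalized Tal1 call without Tal1 tumour 1 (2.01, adjusted p = 0.071).

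Rps27, a zinc-finger protein of the small subunit, was the member called higher in p53 knockout, at 168, 197 and 288 and a difference of 0.81 (SE 0.23, adjusted p = 0.010). The call was lost without tumour 2 (0.86, adjusted p = 0.053) and without tumour 3 (0.61, adjusted p = 0.095). Rps25, used in initiation at internal ribosome entry sites, read 1014 and 1101 in Tal1 and 389, 179 and 532 in Ikaros Plastic, with differences of 1.01 and -0.72; the latter was -0.30 (adjusted p = 0.42) without Ikaros Plastic tumour 2, and the former lost its call without either Tal1 tumour (adjusted p = 0.12 and 0.11). Rpl12, at the base of the stalk, was 0.46 in Cdkn2a knockout, and its lowest signal was 191 in p53 knockout 2 and its highest 804 in Cdkn2a knockout 6. Rpl14 ran from 90.0 in p53 knockout 3 to 469 in Tal1 tumour 1.

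Rpl41, the smallest ribosomal protein, was low on 1 array. Its signal was 1421 in Cdkn2a knockout 8 and 6600 to 8748 in the other 8 Cdkn2a knockout tumours. The difference in Cdkn2a knockout was -0.63 (SE 0.17, adjusted p = 0.0039) with this tumour and -0.37 (adjusted p = 0.0054) without it. A second Rpl41 probe set read 4845 in that tumour and 4668 to 5925 in the others, so the low value was seen by 1 probe set.

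**Figure D5:**
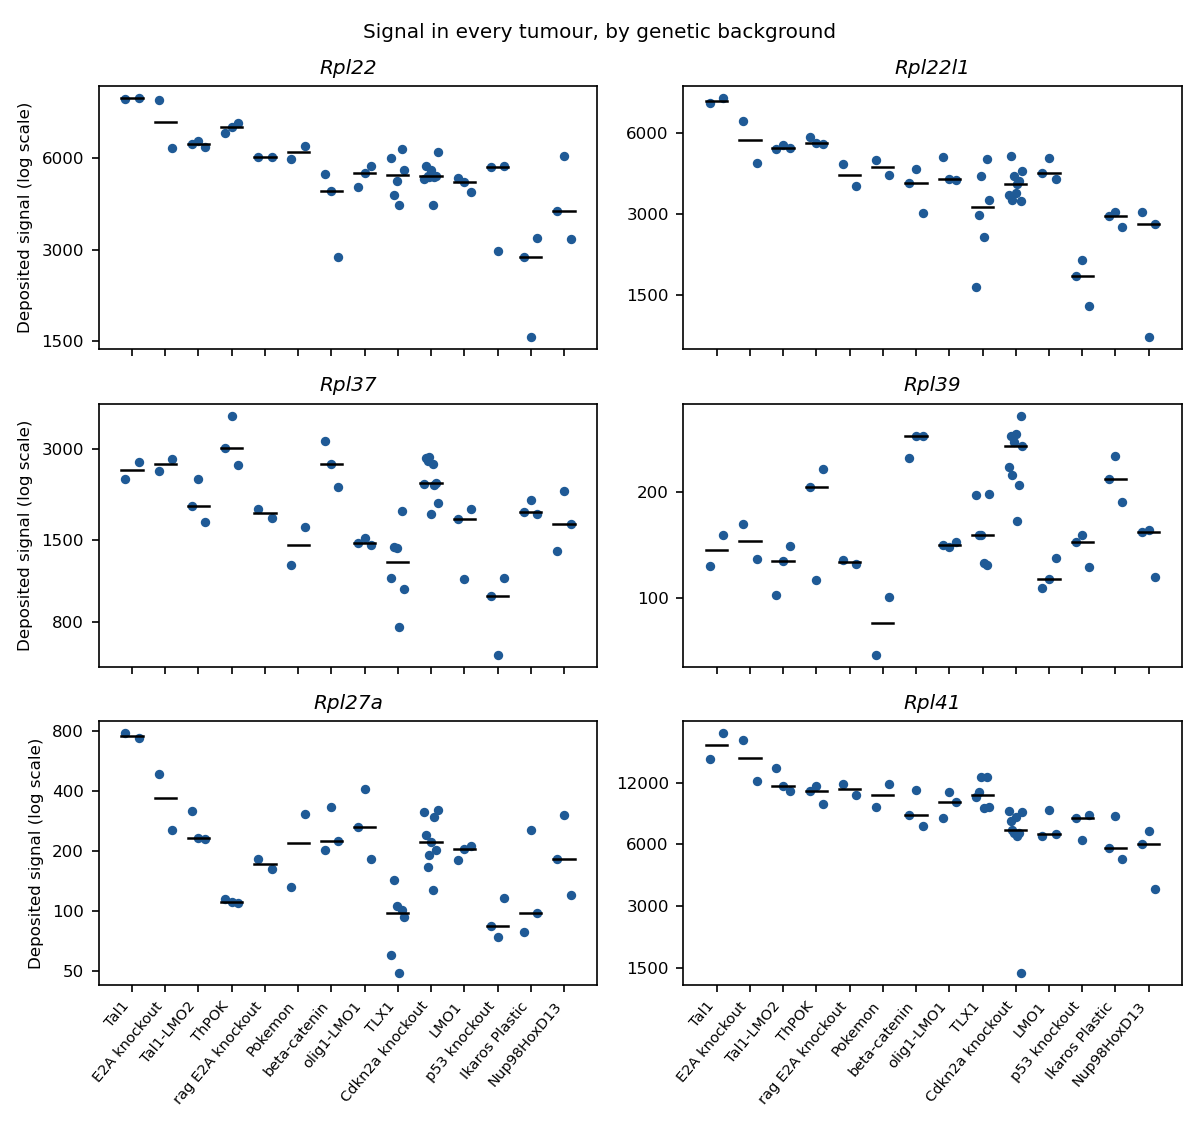
Signals of Rpl22, Rpl22l1, Rpl37, Rpl39, Rpl27a and Rpl41 (signal units, log axis) in each tumour (points) by background, with lines at the background medians. Rpl22 is lowest in Ikaros Plastic tumour 2 at 1547, Rpl27a highest in the Tal1 tumours at 777 and 733, and the single low Rpl41 point is Cdkn2a knockout 8 at 1421.

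The 2 Tal1 tumours, highest in the family shift on average, disagreed on 4 genes. Rps9 read 5809 and 14878, Rpl27 6540 and 12888, Rps19 6041 and 10230 and Fau 3318 and 12196 in tumours 1 and 2. The control 3′ to 5′ ratio of these tumours was 0.75 and 0.13 on the log2 scale, and its part was not tested. Other Rpl27 probe sets read 3762 and 3764, and 4876 and 4747, in the same tumours, without the gap. Relative to the family Rpl27 stood at -0.56 (SE 0.11, adjusted p = 1.3e-04) and Rps19 at -0.57 (SE 0.13, adjusted p = 5.1e-04) in Tal1, but at -0.15 (adjusted p = 0.27) and -0.26 (adjusted p = 0.17) without tumour 1. Rps9 has a second probe set that ran against the first (r = -0.45 over 47 tumours). It read 232 and 189 in Tal1 and 3031, 2922 and 3175 in Ikaros Plastic, so directions for Rps9 hold for its brightest probe set only.

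TLX1-positive and TLX1-negative tumours, the contrast of the genotype label, differed in few members. On deposited values 1 member was called higher and 2 lower, beside 21.4% of all genes (12.6% higher, 8.86% lower), and 3 had an unadjusted p under 0.05. The median difference was -0.04 for members and 0.07 for all genes. Rpl27a read 60, 143, 106, 49, 102 and 94 in the TLX1 tumours, beside a median of 190 over all 47, and differed by -1.10 (SE 0.30, adjusted p = 0.0060). Rpl37 differed by -0.68 (SE 0.22, adjusted p = 0.019). Rps25, at 704, 974, 633, 531, 866 and 1249, differed by 0.61 (SE 0.18, adjusted p = 0.0098). All 6 TLX1 tumours lay below the median of all tumours for Rpl27a and for Rpl37, and the groups overlapped for all 3 genes. The calls of Rpl37 and Rps25 were lost without tumour 6 (adjusted p = 0.054 and 0.063) and that of Rpl37 without tumour 4 (adjusted p = 0.092).

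Quantile normalization gave 2 higher and 4 lower (22.8% of all genes), adding Rpl37a at 0.16, Rps29 at -0.16 and Rps18 at -0.15, each lost without 2 or more of the TLX1 tumours in turn. Relative to the family 4 were higher and 2 lower (7.83%), adding Rpsa at 0.25, Rpl13a at 0.24 and Rpl37a at 0.26, each lost without tumour 2. With the control 3′ to 5′ ratio as a covariate, or background as a random block, limma called 0, and with the covariate the difference of Rps25 was -0.012. Rpl22 and Rpl11 each differed by -0.01, Rps19 by 0.07, Rps14 by -0.02, Rps6 by -0.29, Rplp0 by -0.09 and Rplp2 by 0.12, none of them called.

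Other genes of the translation machinery were set beside the members from listed groups. Of 19 translation factors whose mRNAs also carry TOP tracts 18 were tested, and on deposited values 7 were called higher and 0 lower in Tal1, where 3.10% of all genes were higher, and 7 and 0 in E2A knockout (1.51%). None was higher and 11 were lower in p53 knockout, where 9.34% of all genes were lower, 10 in Ikaros Plastic (7.85%) and 7 in tumours labelled Nup98HoxD13 (1.63%). Without p53 knockout 2, 4 were called lower there, beside 2.62% of all genes. Their mean followed the family shift at r = 0.87 over the 47 tumours, on shared arrays. Within backgrounds r was 0.79, within the 6 TLX1 tumours 0.83 and within the 9 Cdkn2a knockout tumours 0.07. Named examples are Tpt1 at 1.07 and Eef1a1, the elongation factor that delivers tRNA, at 0.95 in Tal1, Naca at -0.82 in p53 knockout (-0.59, adjusted p = 0.0079, without tumour 2) and Eif3h at -0.75 in Ikaros Plastic. After quantile normalization 0 were called in Tal1 (1.15% of all genes) and E2A knockout (1.73%). In p53 knockout 5 were lower (10.3% of all genes lower), and 2 of 18 without tumour 2 (2.52%). Ikaros Plastic had 1 in each direction (7.56% of all genes higher, 10.8% lower).

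Ribosome biogenesis factors assemble the subunits in the nucleolus. Of 40 listed 37 were tested, and their mean correlated with the family shift at r = 0.26. Within backgrounds r was -0.005, within the 6 TLX1 tumours 0.05 and within the 9 Cdkn2a knockout tumours -0.52. On deposited values 1 was called higher in Tal1 (3.10% of all genes), 8 lower in p53 knockout (9.34%), 6 lower in Ikaros Plastic (7.85%) and 6 higher in Cdkn2a knockout, a share near the 16.1% of all genes called higher there. Without p53 knockout 2, 1 was called lower in p53 knockout, beside 2.62% of all genes. The counts after quantile normalization were 0, 9, 4 and 6, beside 0.749%, 10.3%, 10.8% and 13.4% of all genes in the same directions. Those in Ikaros Plastic and Cdkn2a knockout were shares near those of all genes. Ddx21, a helicase of ribosomal RNA processing, was 0.65 in Cdkn2a knockout and -1.10 in p53 knockout (-0.87, adjusted p = 0.0015, without tumour 2). Between TLX1-positive and TLX1-negative tumours 1 was called higher and 7 lower on both scales (12.6% and 8.86% of all genes on deposited values), with Ddx18 at -0.72.

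Of 21 listed regulators of ribosomal protein genes 16 were tested, and 7 were called higher and 0 lower in Cdkn2a knockout on both scales, beside 16.1% of all genes called higher on deposited and 13.4% on quantile-normalized values. Myc, a driver of ribosome synthesis, read 647, 213, 930, 452, 185 and 364 in TLX1 and 1546 to 3116 in Cdkn2a knockout, without overlap, and differed by -1.54 between TLX1-positive and TLX1-negative tumours. Over the 47 tumours its level correlated with the family shift at r = -0.06 on deposited values and 0.49 on quantile-normalized ones. The latter was 0.31 within backgrounds, -0.12 within the 6 TLX1 tumours and 0.49 within the 9 Cdkn2a knockout tumours. The 73 mitochondrial ribosomal proteins, of the separate ribosome inside mitochondria, correlated with the deposited family shift at 0.44. In the same order, r for them was 0.12, -0.53 and -0.18 within these groups. In Ikaros Plastic 18 of them were called lower and 0 higher (7.85% of all genes lower), and 26 and 0 after quantile normalization (10.8%). In beta-catenin 18 were called lower and 1 higher (7.42% of all genes lower).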

How the data were processed

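The arrays measured total RNA, extracted with Trizol and labelled as biotinylated cRNA, of 47 tumours. The deposited values are linear signals per probe set; the submitters' processing notes name MAS5, version and scaling target not given in the sources used here. Of 22690 probe sets, 64 control, 691 of several symbols and 1555 of no symbol were not used for genes. A gene was read from its probe set of highest mean log2 value among those of 1 symbol (20380 probe sets). Signals were taken as log2(signal + 15.9), the 25th percentile of all signals, which understates changes of dim genes. Genes above the array median on at least 2 arrays were tested with limma 3.58.1 in R 4.3.3 (lmFit, eBayes with trend, Benjamini-Hochberg over all tested genes). Quantile normalization and subtraction of the tumour's mean over the 41 members were the other scales. The scripts were tested on simulated data. No 2 arrays held identical values. The number of arrays limits the precision. Named with values were a set of members with known roles, the called members of lowest p per contrast, those of largest and smallest spread relative to the family, those of lowest relative F test p, and the tested paralogs. The members and lists were chosen with earlier results of these data known, and the mitochondrial list follows a symbol pattern chosen after the data were examined. Alternatives are given at the end, where counts under the family mean over the 34 bright members are not given separately. That setting and TLX1 without tumours 2, 5 and 6 were added after seeing the data.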

Additional observations from a re-analysis of the deposited data

Results flagged for a closer look

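In backgrounds of 4 to 10 tumours, which are TLX1 and Cdkn2a knockout, a tumour far from the others was looked for. It was found in 7 of 86 groupings of a member's signal or the family shift, where chance gives about 1 in 20. The groupings share arrays and most members move together, so they are not independent and no excess can be read from this count. All 7 were in Cdkn2a knockout. The Rpl41 signal of tumour 8 was 1421 against 6600 to 8748 in the others, and the family shift of that tumour after quantile normalization was -0.029 against 0.06 to 0.11. The Rpl22 signal of tumour 6 was 4212 against 5142 to 6306.

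Tumour 9 was flagged as high for 4 members, all of the small subunit. Its family shift on deposited values, 0.06, was the highest of the 9 Cdkn2a knockout tumours. So were its small-subunit and large-subunit mean shifts, at 0.09 and 0.04, so the 4 flags are not separate from a shift of the family. Tumour 9 read 9471 for Rps14 against 6144 to 7301 and 10927 for Rps29 against 7368 to 8505. It read 8633 for Rps7 against 5908 to 7156 and 6999 for Rps9 against 5605 to 6150.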

How the results depend on the processing

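Quantile normalization moved the members called to 6 for TLX1-positive against TLX1-negative tumours, 54 over the 14 backgrounds, 11 in p53 knockout, 4 in Tal1, 0 in Tal1-LMO2, 0 in E2A knockout, 2 in Nup98HoxD13, 5 in Ikaros Plastic, 10 in Cdkn2a knockout and 22 by the F test; in Tal1-LMO2 and E2A knockout limma left 2 and 4 at an unadjusted p under 0.05. The relative pairs fell from 100 to 55 and the SD of the family means from 0.38 to 0.063. Centring arrays on their median gave 31 in Tal1-LMO2, 31 in Cdkn2a knockout (1 higher, 30 lower) and 1 higher and 19 lower in beta-catenin. In the same order, limma then called 1219, 2894 and 2416 of the 8810 genes in either direction. The median difference was 0.68, -0.34 and -0.37 for members and 0.23, -0.12 and -0.28 for all genes. No filter gave 5 in Tal1-LMO2. The probe set of largest interquartile range gave 8 for TLX1 and 156 relative pairs. For TLX1, limma called 0 with the control 3′ to 5′ ratio as a covariate, 0 with background as a random block (consensus correlation 0.35) and 0 without tumours 2, 5 and 6, with 1, 2 and 3 members at an unadjusted p under 0.05. The title numbers did not pair tumours: same-numbered tumours of different backgrounds correlated at a median of -0.003 (230 pairs) and others at 0.004, and 13 of 47 tumours matched their own number best. With the number as a replicate block, 4 members were called in Cdkn2a knockout (14 at an unadjusted p under 0.05), and no other count above moved by over 1.5 times under it.

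Leaving out 1 tumour at a time gave 1 (without TLX1 tumour 6) to 3 for TLX1, 167 to 208 over the backgrounds, 7 (without p53 knockout 2) to 34 in p53 knockout, 19 (without Tal1 tumour 2) to 32 in Tal1, 1 (without Tal1-LMO2 tumour 1) to 16 (without Nup98HoxD13 tumour 2) in Tal1-LMO2, 0 (without E2A knockout 1) to 31 in E2A knockout, 1 (without Nup98HoxD13 tumour 3) to 31 in Nup98HoxD13, 29 to 35 in Ikaros Plastic, 17 to 28 in Cdkn2a knockout, 38 to 40 by the F test, 25 to 33 by the relative F test, 90 to 116 relative pairs and an SD of the family means of 0.36 to 0.41. A background left with 1 tumour is assumed to vary like the others. Of 125 named differences under 12 other settings, 995 values kept sign and call, 137 lost the call, 2 gained it and 16 turned sign; leaving out 1 tumour, 5698 kept both, 176 lost the call and 1 turned, Rpl39l in Ikaros Plastic whose value ran from -0.31 without tumour 3 to 2.37 without tumour 2.

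The covariate turned Rps25 in TLX1 to -0.012. The probe set of largest interquartile range turned Rps9 to 1.28 in p53 knockout and -2.30 in Tal1-LMO2, and Rpl22 to 0.40 in Ikaros Plastic (0.73 relative), -0.021 in ThPOK and -0.040 in Tal1. On the relative scale it turned Rpl13a to -4.1e-04 in TLX1 and 0.10 in beta-catenin, Rpl35 to -0.42 in Tal1, 0.79 in Ikaros Plastic, 0.43 in beta-catenin and 0.49 in Cdkn2a knockout, and Rpl37a to -0.30 in E2A knockout. Quantile normalization turned the relative Rpl39 to -0.20 and Rps18 to 0.0063 in Nup98HoxD13. The cause was not tested. Backgrounds of 2 or 3 tumours limit every statement, and 7 members are read by probe sets with median signals of 115 to 654 beside a median of 72.2 over all signals.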
